A study of Mus musculus with 8 samples.

Results

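The genes followed here encode the molecules that present peptides to CD4 T cells and the coactivator that switches them on. The list holds 10 mouse genes, the classical class II chains H2-Aa, H2-Ab1 and H2-Eb1, the peptide-loading chains H2-DMa, H2-DMb1, H2-DMb2, H2-Oa and H2-Ob, the invariant chain Cd74, and Ciita, the class II transactivator. Members were taken as rows of the expression table annotated to exactly 1 of these symbols, which left 8 of the 10 members, out of 19938 genes with a row of 1 symbol. H2-DMb1 and H2-DMb2 are annotated together to the same row, so neither can be named from it and both were left out. Each of the other members had 1 row.

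Expression was measured on 8 arrays, 1 for each sorted sample of spleen XCR1+ dendritic cells of untreated mice with an Il12b-EYFP reporter, in which a yellow fluorescent protein reports the gene of the interleukin 12 p40 subunit. All samples shared the same gate, without lineage markers, with BST2 absent or low, CD11c high and CD8α present. From that gate came cells with CCR7 and reporter (called CCR7+Il12b+ here, n = 2), cells with CCR7 and no reporter (CCR7+Il12b-, n = 3) and cells with neither, labelled immature (n = 3). The labels call both CCR7+ fractions homeostatically matured. CCR7 is the chemokine receptor gained by maturing dendritic cells, and class II protein was not among the markers of the sort. The labels used here give no age or further strain, and do not say whether the replicates are different mice. A p-value therefore reflects only how far these samples scatter, and that scatter may be technical. All 12 measured XCR1+ dendritic cell markers had a mean above background (4.98 on the log2 scale, a mark set at the 95th percentile of 1194 genes for smell and pheromone receptors) in each of the 3 groups. In CCR7+Il12b+ cells Itgae, at 5.01, lay close to that mark. Other cell types met it too, with 5 or 6 of 6 plasmacytoid dendritic cell markers per group. For macrophage and monocyte markers it was 7 to 9 of 11. Array medians lay between 5.25 and 5.46, and with 2 or 3 arrays a group all values have limited precision.

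Class II molecules are pairs of an α and a β chain that assemble around the invariant chain, which is then cut down to a peptide called CLIP in endosomes. The chaperone H2-M, made of the H2-DM chains, exchanges CLIP for antigenic peptides, and H2-O, made of H2-Oa and H2-Ob, restrains H2-M. CIITA binds no DNA itself and is recruited by the RFX, CREB and NF-Y factors that sit on a conserved promoter module with an X box and a Y box. Dendritic cells are known to silence Ciita transcription as they mature while class II already made is kept at the cell surface.

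The promoter module is shown because the members that carry it did not move alike in the data below. RefSeq promoter windows, 250 bases before to 50 after a transcript start on the assembly GRCm38.p6, were found for 7 of the 10 members. The letters searched were GCAAC, a core of many X boxes, followed on the same strand by TGATTGG. The second motif holds ATTGG, the reverse complement of the Y box core CCAAT. The starts of the motifs were to lie 28 to 31 bases apart. This spacing was set after the members' own sequences had been read. In the 4 members that hold the pair, and in H2-Eb2, a neighbouring class II β chain gene outside the list, the stretch reads as follows, 5′ to 3′ on the gene's strand, with both motifs in capitals.
H2-Oa: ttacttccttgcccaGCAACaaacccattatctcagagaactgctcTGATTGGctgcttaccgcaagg
H2-Ob: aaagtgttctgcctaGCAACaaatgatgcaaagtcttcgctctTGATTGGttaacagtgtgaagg
H2-Aa: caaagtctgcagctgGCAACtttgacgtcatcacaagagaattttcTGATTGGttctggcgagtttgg
H2-Eb1: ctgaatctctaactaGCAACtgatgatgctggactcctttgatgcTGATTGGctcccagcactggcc
H2-Eb2: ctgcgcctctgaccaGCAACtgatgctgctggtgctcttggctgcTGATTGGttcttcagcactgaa
These stretches lie at chr17:34092288-34092355 (plus strand), chr17:34238803-34238867 (plus), chr17:34287852-34287919 (minus), chr17:34305761-34305827 (plus) and chr17:34325528-34325594 (plus), in the order shown. The pair starts 76, 87, 81, 91 and 132 bases before the transcript start of H2-Oa, H2-Ob, H2-Aa, H2-Eb1 and H2-Eb2. For H2-Eb2 that start lies inside the annotated gene, whose outermost start at base 34325503 precedes the stretch. Of all 32851 mouse promoter windows of the same length, 15 held the pair at this spacing on either strand (0.0457%), while TGATTGG at any place was in 7.82% and GCAAC in 35.2%, on either strand. On the gene's strand alone 9 windows held the pair (0.0274%), the stretches shown among them. On that strand the windows of H2-DMb1 and H2-DMb2 hold TGATTGG without GCAAC, and the 2 windows of H2-DMa hold neither. The other strand of the members' windows was not read for the single motifs. These 2 windows may not be those of the main H2-DMa transcript, since the outermost annotated start, at base 34119693, precedes both. A match is a description of letters and says nothing of binding in these cells.

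Ciita and the measured peptide-loading genes, H2-DMa, H2-Oa and H2-Ob, were lower in the CCR7+ fractions than in immature cells. They were lower again in the cells with the reporter. The calls of H2-Oa and H2-Ob in CCR7+Il12b- against immature cells, and of H2-Ob between the CCR7+ fractions, ended when some samples were left out. The classical chains and the invariant chain differed from immature cells by at most 0.55 on the log2 scale in either direction. In CCR7+Il12b+ against immature cells 6 of the 8 measured members fell and none rose (moderated test of limma, threshold 0.05 after adjustment over all genes). Of all genes 32% passed there, with 17.9% lower. In CCR7+Il12b- against immature cells 4 of 8 fell and none rose, where 23.6% of all genes passed, with 14.5% lower. Between CCR7+Il12b+ and CCR7+Il12b- cells 5 of 8 were lower in the reporter-positive cells and none higher, where 7.08% of all genes passed, with 4.47% lower. The samples of the 2 groups did not overlap in 6, 5 and 8 of the 8 members in these comparisons, against 57.1%, 41.3% and 29.6% of all genes. The median log2 difference of the 8 members was -1.23, -0.32 and -0.80 in these 3 comparisons, against 0.09, 0.06 and 0.02 over all genes. The comparisons share samples, so their counts are not independent.

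**Figure D1:**
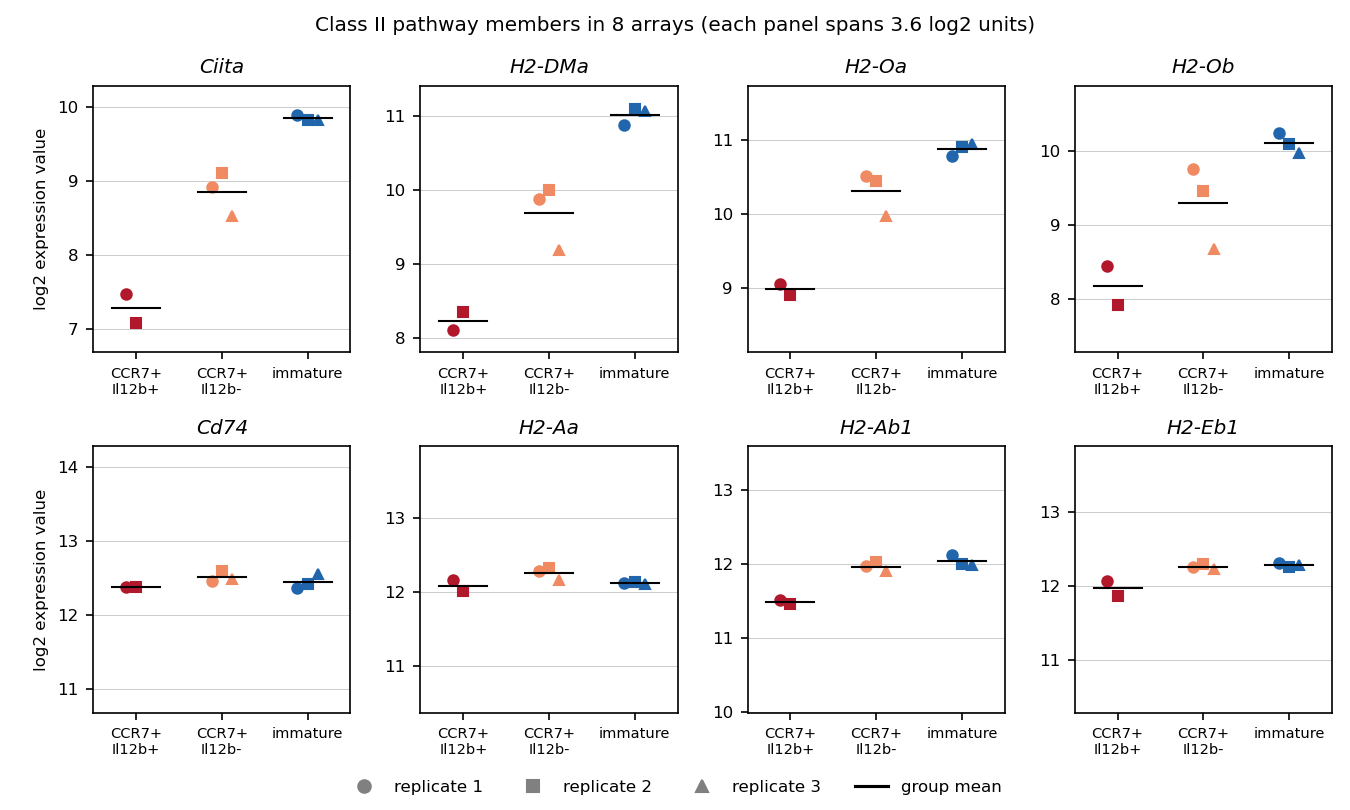
Log2 expression values of the 8 measured members in each array, with a panel per gene that spans 3.6 log2 units. Points are samples of the CCR7+Il12b+, CCR7+Il12b- and immature fractions, shapes are replicate numbers and bars are group means. Ciita, H2-DMa, H2-Oa and H2-Ob step down across the fractions without overlap, while Cd74 and the classical chains lie almost level.

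Ciita, the coactivator on which class II transcription depends, was at 7.47 and 7.08 (log2) in CCR7+Il12b+ cells, at 8.91, 9.10 and 8.52 in CCR7+Il12b- cells and at 9.88, 9.82 and 9.82 in immature cells. The 3 groups did not overlap, and the immature samples lay close together (SD 0.04). The difference from immature cells was -2.57 ± 0.17 (SE) in CCR7+Il12b+ cells, a 5.93-fold lower level (adjusted p = 1.06e-06). In CCR7+Il12b- cells it was -0.996 ± 0.16 (adjusted p = 0.000857), or 1.99-fold lower. The reporter-positive cells were lower than the reporter-negative ones with a difference of -1.57 ± 0.17 (adjusted p = 0.000542). On the log2 scale, 38.8% of the fall seen in CCR7+Il12b+ cells was present in CCR7+Il12b- cells. Ciita is transcribed from several promoters, which this single row does not tell apart.

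H2-DMa encodes the α chain of the exchange chaperone H2-M. It was at 8.11 and 8.34 in CCR7+Il12b+ cells, at 9.87, 9.99 and 9.18 in CCR7+Il12b- cells and at 10.87, 11.09 and 11.06 in immature cells. None of the groups overlapped. It fell 6.89-fold in CCR7+Il12b+ cells, with a log2 difference of -2.78 ± 0.21 (adjusted p = 2.18e-06), the largest change among the 8 members. The fall in CCR7+Il12b- cells was 2.51-fold (-1.33 ± 0.19, adjusted p = 0.000458), which is 47.7% of that in the reporter-positive cells on the log2 scale. The direct difference between CCR7+Il12b+ and CCR7+Il12b- cells was -1.46 ± 0.21 (adjusted p = 0.0020).

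H2-Oa and H2-Ob encode the chains of H2-O, the inhibitor of H2-M, which is found in B cells, thymic epithelium and some dendritic cells. H2-Oa was at 9.05 and 8.91 in CCR7+Il12b+ cells, at 10.52, 10.44 and 9.97 in CCR7+Il12b- cells and at 10.78, 10.91 and 10.95 in immature cells. H2-Ob was at 8.45 and 7.91 in CCR7+Il12b+ cells, at 9.76, 9.47 and 8.67 in CCR7+Il12b- cells and at 10.24, 10.10 and 9.97 in immature cells. For both genes the groups did not overlap, although the lowest CCR7+Il12b- sample of H2-Ob came within a short distance of the higher CCR7+Il12b+ sample. In CCR7+Il12b+ against immature cells H2-Oa fell 3.73-fold (-1.90 ± 0.16, adjusted p = 5.20e-06) and H2-Ob 3.79-fold (-1.92 ± 0.27, adjusted p = 0.00021). The smaller differences between CCR7+Il12b- and immature cells were -0.57 ± 0.14 for H2-Oa (adjusted p = 0.0146) and -0.81 ± 0.24 for H2-Ob (adjusted p = 0.0326). The call of H2-Oa in this comparison ended without immature replicate 2 (adjusted p = 0.0555) or 3 (0.0608). That of H2-Ob ended without any 1 immature replicate (0.0611 to 0.0889) and without CCR7+Il12b- replicate 2 (0.0506) or 3 (0.0790). Without replicate 3 its difference was -0.49. Between the CCR7+ fractions H2-Oa differed by -1.33 ± 0.16 (adjusted p = 0.000853) and H2-Ob by -1.12 ± 0.27 (adjusted p = 0.0310). This call of H2-Ob ended without any 1 sample other than immature replicates 1 and 3 and CCR7+Il12b- replicate 3 (0.0523 to 0.223), after median centring (0.0507) and in a fit of the compared groups alone (0.0699).

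Cd74 encodes the invariant chain, which chaperones class II chains to endosomes. It was at 12.38 and 12.38 in CCR7+Il12b+ cells, at 12.47, 12.60 and 12.49 in CCR7+Il12b- cells and at 12.36, 12.42 and 12.55 in immature cells. The CCR7+Il12b+ values lay inside the immature range. No comparison passed (adjusted p = 0.698 for CCR7+Il12b+ against immature, 0.652 for CCR7+Il12b- against immature and 0.623 between the CCR7+ fractions). The 95% interval of the log2 difference from immature cells ran from -0.31 to 0.19 in CCR7+Il12b+ cells and from -0.15 to 0.30 in CCR7+Il12b- cells, which leaves out a change of the size seen for Ciita.

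H2-Aa, the I-A α chain, was at 12.16 and 12.02 in CCR7+Il12b+ cells, at 12.29, 12.33 and 12.16 in CCR7+Il12b- cells and at 12.13, 12.15 and 12.11 in immature cells. Its difference from immature cells was -0.04 in CCR7+Il12b+ cells (interval -0.29 to 0.21, adjusted p = 0.815) and 0.13 in CCR7+Il12b- cells (interval -0.09 to 0.35, adjusted p = 0.399). Neither passed, and the CCR7+Il12b+ samples lay on both sides of the immature values.

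H2-Ab1, the I-A β chain that pairs with H2-Aa, was at 11.51 and 11.46 in CCR7+Il12b+ cells, below all other samples, at 11.97, 12.03 and 11.91 in CCR7+Il12b- cells and at 12.13, 12.01 and 11.98 in immature cells. It fell 1.47-fold in CCR7+Il12b+ against immature cells (-0.55 ± 0.11, adjusted p = 0.00242). In CCR7+Il12b- cells the difference was -0.07 (interval -0.29 to 0.15, adjusted p = 0.660). The direct difference between the CCR7+ fractions was -0.48 ± 0.11 (adjusted p = 0.0238). It no longer passed without CCR7+Il12b- replicate 1 or 2 or either CCR7+Il12b+ sample (0.0655 to 0.0927), in a fit of the compared groups alone (0.0717) or with a replicate block (0.0502).

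H2-Eb1, the I-E β chain, was at 12.07 and 11.86 in CCR7+Il12b+ cells, at 12.25, 12.30 and 12.22 in CCR7+Il12b- cells and at 12.31, 12.26 and 12.29 in immature cells. The difference between CCR7+Il12b+ and immature cells was -0.32 ± 0.11 (adjusted p = 0.0493), close to the threshold. It passed without CCR7+Il12b+ replicate 1 and failed when any of the other samples was left out (adjusted p from 0.0515 to 0.277). In CCR7+Il12b- cells the difference was -0.027 (interval -0.25 to 0.19, adjusted p = 0.875), and between the CCR7+ fractions it was -0.29 (adjusted p = 0.178). The intervals of the classical chains and Cd74 in CCR7+Il12b+ against immature cells all lay above those of Ciita, H2-DMa, H2-Oa and H2-Ob, whose upper ends ran from -2.32 to -1.33. The highest value anywhere in the table was 13.65 on the log2 scale. The part that nearness to the top of the scale plays in the small differences of Cd74 and the classical chains was not tested.

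**Figure D2:**
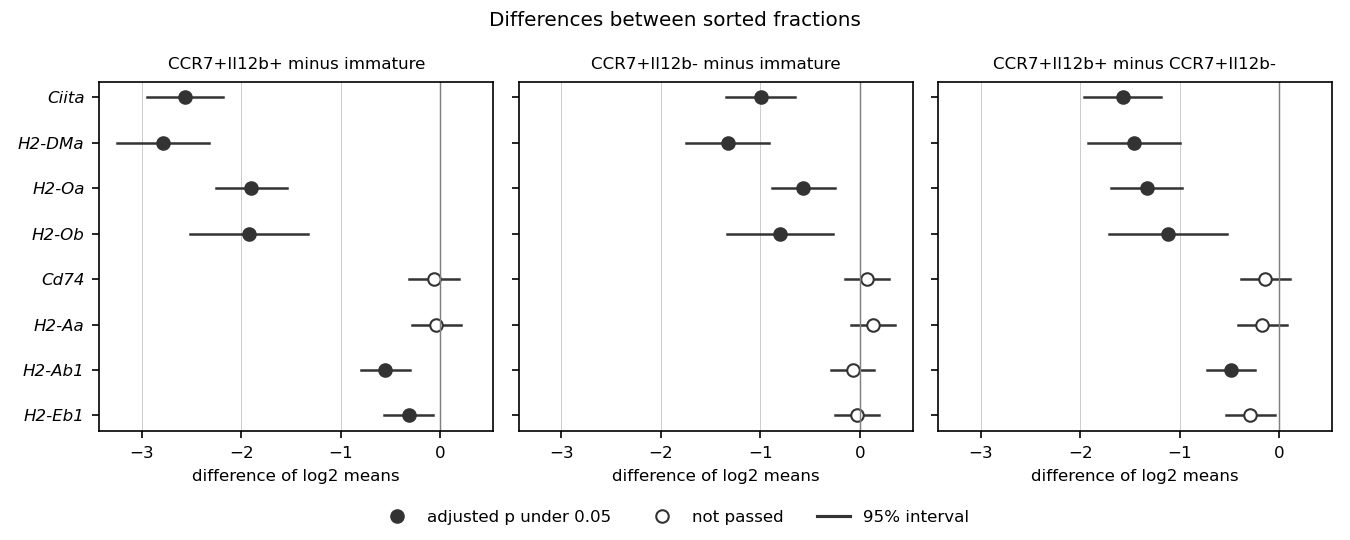
Differences of log2 group means with 95% intervals for the 8 measured members in CCR7+Il12b+ minus immature, CCR7+Il12b- minus immature and CCR7+Il12b+ minus CCR7+Il12b- samples. Filled points passed an adjusted p under 0.05. Ciita, H2-DMa, H2-Oa and H2-Ob lie left of 0 in all 3 panels, between -2.78 and -0.57, while H2-Aa and Cd74 stay within 0.17 of it.

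CCR7+Il12b- replicate 3 was the lowest sample of its fraction in 7 of 8 members, all but Cd74, against 34.8% of all genes. It lay below the mean of the other CCR7+Il12b- samples by -0.49 in Ciita, -0.75 in H2-DMa, -0.51 in H2-Oa and -0.94 in H2-Ob, toward the CCR7+Il12b+ samples. The same sample had the lowest Xcr1 value of the fraction (8.94, against 9.85 and 9.83). Without it, Ciita, H2-DMa and H2-Oa were still lower in CCR7+Il12b- than in immature cells, so that 3 of 8 members fell. In bulk samples, fewer cells with a transcript and less transcript per cell cannot be told apart.

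Unequal change within the pathway was tested on the difference of 2 genes within each array, with all 5 CCR7+ samples set against the 3 immature ones in an exact two-sided permutation test, adjusted over 4 gene pairs. Its smallest possible p is 0.0357, and a difference between genes on an array carries no meaning as a level, so only its shift between groups is read. H2-Oa minus H2-DMa was 0.68 ± 0.19 (SD, n = 5) in CCR7+ samples and -0.13 ± 0.05 (n = 3) in immature samples, a shift of 0.81 (adjusted p = 0.0476, exact permutation), higher in 5 of 5 CCR7+ samples. In these samples H2-DMa, the gene of the chaperone chain, fell further than H2-Oa, that of its inhibitor's chain. The adjusted p does not add to this, since it passes only through another pair, described below. H2-Ob minus H2-DMa was -0.25 ± 0.37 in CCR7+ samples and -0.90 ± 0.24 in immature samples, a shift of 0.66 (adjusted p = 0.0476, exact permutation), again without overlap. Cd74 minus H2-Ab1 shifted by 0.28, with 0.69 ± 0.19 in CCR7+ and 0.40 ± 0.17 in immature samples, the groups overlapped, and it did not pass (p = 0.0714, adjusted p = 0.0714, exact permutation).

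The largest shift was between the transactivators of the 2 classes. Nlrc5, a relative of Ciita that activates class I genes, was at 12.14 and 11.88 in CCR7+Il12b+ cells, at 11.44, 11.26 and 11.85 in CCR7+Il12b- cells and at 8.92, 9.11 and 8.95 in immature cells. All CCR7+ samples lay well above the immature ones, the reverse of Ciita. Nlrc5 minus Ciita was 3.50 ± 1.21 (SD, n = 5) in CCR7+ samples and -0.85 ± 0.13 (n = 3) in immature samples, a shift of 4.35 (adjusted p = 0.0476, exact permutation). Each gene alone already separated the groups, in opposite directions, so this pair had to reach the smallest possible p and its test adds nothing. The H2-Oa and H2-Ob pairs reach an adjusted p of 0.0476 only because this pair is among those adjusted together. With each of the 19 rows of Nlrc5 in turn, the shift lay between 3.38 and 4.57.

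**Figure D3:**
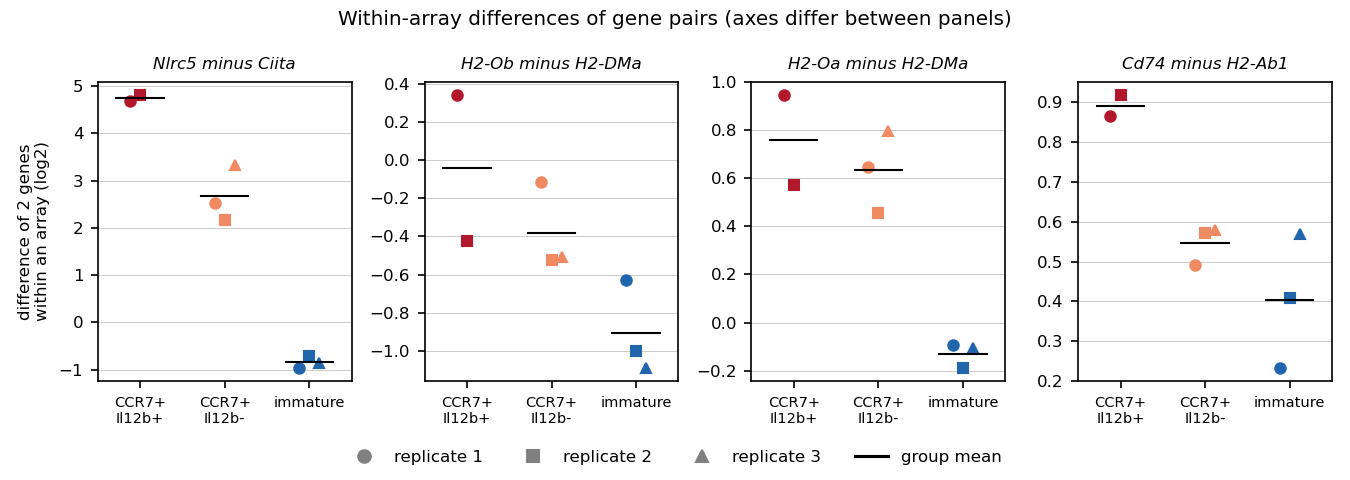
Within-array differences (log2) of 4 gene pairs in the CCR7+Il12b+, CCR7+Il12b- and immature samples, on axes that differ between panels, with bars at group means. For the pairs of Nlrc5 and Ciita, H2-Ob and H2-DMa, and H2-Oa and H2-DMa all 5 CCR7+ samples lie above all 3 immature samples, and for Cd74 and H2-Ab1 the groups overlap.

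Other genes of the pathway were read from lists that were drawn up with some earlier results of these data known. Of their 58 genes outside the members, 54 were measured. In CCR7+Il12b+ against immature cells 21 rose and 11 fell, with a median log2 difference of 0.27, and in CCR7+Il12b- against immature cells 17 rose and 4 fell, with a median of 0.16. Between the CCR7+ fractions 2 were higher (Irf1 and Lgmn), 1 lower (Myo1e) and 51 did not pass. Of all genes 14.1% rose in the comparison of CCR7+Il12b+ with immature cells and 9.1% in that of CCR7+Il12b- with immature cells, and 2.61% were higher between the CCR7+ fractions. The shares that fell were 17.9% and 14.5%, and 4.47% were lower between the CCR7+ fractions. These shares apply to each list below, and some list counts lie near them.

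Among 14 measured factors that bind the Ciita or class II promoters, 6 rose and 4 fell in CCR7+Il12b+ against immature cells, and 3 rose and 2 fell in CCR7+Il12b- against immature cells. The list medians were 0.38 and 0.18. The share of falls in CCR7+Il12b- cells lay near the 14.5% of all genes that fell there. In CCR7+Il12b+ cells the 6 rises became 2 without CCR7+Il12b+ replicate 1, when Rfx5, Nfya, Irf4 and Prdm1 no longer passed, and the 4 falls became 2 without CCR7+Il12b+ replicate 2, when Nfyc and Spi1 did not. Irf1, an interferon-induced activator of a Ciita promoter, rose while Ciita fell. It was at 11.80 and 11.26 in CCR7+Il12b+ cells, at 10.47, 10.49 and 10.78 in CCR7+Il12b- cells and at 9.08, 8.80 and 8.74 in immature cells, with differences from immature cells of 2.66 ± 0.18 (adjusted p = 9.68e-07) and 1.71 ± 0.16 (adjusted p = 2.46e-05). Irf1 was also higher in CCR7+Il12b+ than in CCR7+Il12b- cells (0.94 ± 0.18, adjusted p = 0.00919), though not without CCR7+Il12b+ replicate 1 (adjusted p = 0.0866).

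Prdm1, whose product Blimp-1 is known to repress Ciita in plasma cells, was at 5.87 and 5.26 in CCR7+Il12b+ cells and at 6.12, 6.02 and 5.98 in CCR7+Il12b- cells, against 4.96, 4.73 and 4.97 in immature cells. The immature mean lay below the background mark, so the rise is at least 1.505-fold in CCR7+Il12b+ (adjusted p = 0.00948) and at least 2.09-fold in CCR7+Il12b- cells (adjusted p = 0.000282). The call in CCR7+Il12b+ cells ended without their replicate 1 (adjusted p = 0.0844). The difference of Prdm1 between the CCR7+ fractions did not pass (-0.47, interval -0.85 to -0.10, adjusted p = 0.148).

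Rfxap, a subunit of the RFX complex on the X box, was lower than in immature cells in both fractions, by -1.02 ± 0.14 with the reporter (adjusted p = 0.000178) and -0.92 ± 0.13 without it (adjusted p = 0.00036). Irf8, a lineage factor of XCR1+ dendritic cells, was lower by -1.23 ± 0.19 (adjusted p = 0.000363) and -0.96 ± 0.17 (adjusted p = 0.00161) in the same comparisons. Of 6 CIITA coactivators only Ncoa1 passed, in CCR7+Il12b+ against immature cells (-0.65 ± 0.12, adjusted p = 0.00125).

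Some endosomal protease genes and the reductase gene Ifi30 rose in the CCR7+ fractions. Of 10 proteases, reductase and inhibitors, 6 rose and 1 fell in CCR7+Il12b+ against immature cells (list median 0.63), and 5 rose and none fell in CCR7+Il12b- against immature cells (median 0.30). Between the CCR7+ fractions 1 was higher and 9 did not pass. The gene that fell was Ctsl, cathepsin L (-0.40, adjusted p = 0.0440), a call that 5 of the 8 samples each ended when left out. Lgmn, the asparaginyl endopeptidase legumain, was at 9.63 and 9.37 in CCR7+Il12b+ cells, at 8.99, 8.99 and 8.85 in CCR7+Il12b- cells and at 7.62, 7.72 and 7.45 in immature cells. Ifi30, the thiol reductase GILT, was at 11.97 and 11.91 in CCR7+Il12b+ cells, at 11.74, 11.78 and 11.87 in CCR7+Il12b- cells and at 10.57, 10.51 and 10.69 in immature cells. Both rose in each CCR7+ fraction, Lgmn by 1.90 ± 0.13 and 1.34 ± 0.12 and Ifi30 by 1.35 ± 0.11 and 1.21 ± 0.10, in CCR7+Il12b+ and CCR7+Il12b- cells in that order. Lgmn was also higher in CCR7+Il12b+ than in CCR7+Il12b- cells (0.56 ± 0.13, adjusted p = 0.0276), though 4 of the 8 samples each ended this call when left out (adjusted p from 0.0544 to 0.17). Ctsz, cathepsin Z, rose by 0.95 ± 0.11 in cells with the reporter and by 0.70 ± 0.10 in CCR7+Il12b- cells. Ctss, cathepsin S, which makes the last cuts in the invariant chain, and Ctsb, cathepsin B, did not pass in any comparison and are named after their values were seen. Ctss differed from immature cells by -0.13 (interval -0.38 to 0.12) and 0.042 (interval -0.18 to 0.27) with and without the reporter.

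Turnover and transport genes gave 2 rises and 3 falls among 9 measured in CCR7+Il12b+ against immature cells (median 0.07), and 2 rises and 1 fall in CCR7+Il12b- against immature cells (median 0.02). Against immature cells 14.1% of all genes rose and 17.9% fell in CCR7+Il12b+ cells, and 9.1% rose and 14.5% fell in CCR7+Il12b- cells. The rises in CCR7+Il12b+ cells were Marchf8, a ubiquitin ligase related to Marchf1, and Cd83, whose product is known to oppose MARCH1. Marchf8 had an immature mean of 4.49, below the background mark of 4.98. Its CCR7+Il12b+ samples, at 4.91 and 5.09, lay on both sides of that mark, so the size of its rise is not read. The adjusted p was 0.0273 for Marchf8 and 0.0270 for Cd83, which rose by 0.49. Neither passed without immature replicate 3, and 1 of them failed when either CCR7+Il12b+ sample or one of the other immature samples was left out. Marchf1, the ubiquitin ligase that marks class II and CD86 for lysosomes in immature dendritic cells, was at 6.35 and 6.97 in CCR7+Il12b+ cells, at 7.22, 7.52 and 7.02 in CCR7+Il12b- cells and at 8.33, 7.98 and 8.27 in immature cells. Like Ciita it fell in both fractions, with differences from immature cells of -1.53 ± 0.20 (adjusted p = 0.000123) in CCR7+Il12b+ and -0.94 ± 0.18 (adjusted p = 0.00292) in CCR7+Il12b- cells. Its difference between the CCR7+ fractions was -0.59 and did not pass (adjusted p = 0.117). Ap1m1, a subunit of the AP-1 clathrin adaptor, and Rab7, a GTPase of late endosomes, were lower in CCR7+Il12b+ than in immature cells (-0.86 ± 0.18 and -0.66 ± 0.14). Myo1e, a myosin linked to class II transport, was at least 1.37-fold higher in CCR7+Il12b- than in immature cells (adjusted p = 0.000401), its immature mean being below background. It was at least 1.37-fold lower in CCR7+Il12b+ than in CCR7+Il12b- cells (adjusted p = 0.0421), a call that 7 of the 8 samples each ended when left out. Arl14, a GTPase of class II vesicle transport, passed in CCR7+Il12b- against immature cells (adjusted p = 0.0370), but both means were below background and 5 of the 8 samples each ended the call when left out.

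Of 9 measured neighbours in the class II region outside the list, 4 rose and none fell against immature cells in each CCR7+ fraction, with list medians of 0.25 with and 0.18 without the reporter. H2-Eb2 was at 9.66 and 9.68 in CCR7+Il12b+ cells and at 9.54, 9.63 and 9.59 in CCR7+Il12b- cells, against 5.46, 5.88 and 5.94 in immature cells. It rose 15.03-fold (3.91 ± 0.15, adjusted p = 2.14e-08) in CCR7+Il12b+ and 14.2-fold (3.83 ± 0.13, adjusted p = 2.64e-08) in CCR7+Il12b- cells, and between the CCR7+ fractions it differed by 0.08 (interval -0.24 to 0.41, adjusted p = 0.858). Its promoter stretch carries the same pair of motifs as that of H2-Eb1, the adjoining β chain gene, which stayed within 0.32 of its immature level in either fraction. The rows of related β chain genes can share signal, and the probe sequences were not used here. Tap2, a chain of the class I peptide transporter encoded between the class II genes, rose by 0.80 ± 0.11 and 0.67 ± 0.10 in CCR7+Il12b+ and CCR7+Il12b- cells, in that order. Tap1, the other chain of that transporter, rose by 0.64 ± 0.14 in CCR7+Il12b+ cells (adjusted p = 0.00354). H2-Ea, the I-E α chain, had an immature mean below background and rose at least 1.02-fold in CCR7+Il12b+ (adjusted p = 0.0209) and at least 1.08-fold in CCR7+Il12b- cells (adjusted p = 0.00609). The CCR7+Il12b+ call ended when any of immature replicates 2 and 3 and CCR7+Il12b+ replicate 1 was left out. Of 10 measured class I counterparts, 5 rose in each CCR7+ fraction against immature cells, led by Nlrc5, while 2 fell in the fraction with the reporter and 1 in that without. The 5 rises in CCR7+Il12b- cells became 2 without immature replicate 3 or CCR7+Il12b- replicate 2, when B2m, Tap1 and Tapbp no longer passed, and 3 without any of 4 other samples. The 2 falls in CCR7+Il12b+ cells became 1 when either CCR7+Il12b+ sample, immature replicate 2 or immature replicate 3 was left out. Pdia3, a class I loading chaperone, was the gene that fell in both (-1.20 ± 0.17 and -0.67 ± 0.15).

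**Figure D4:**
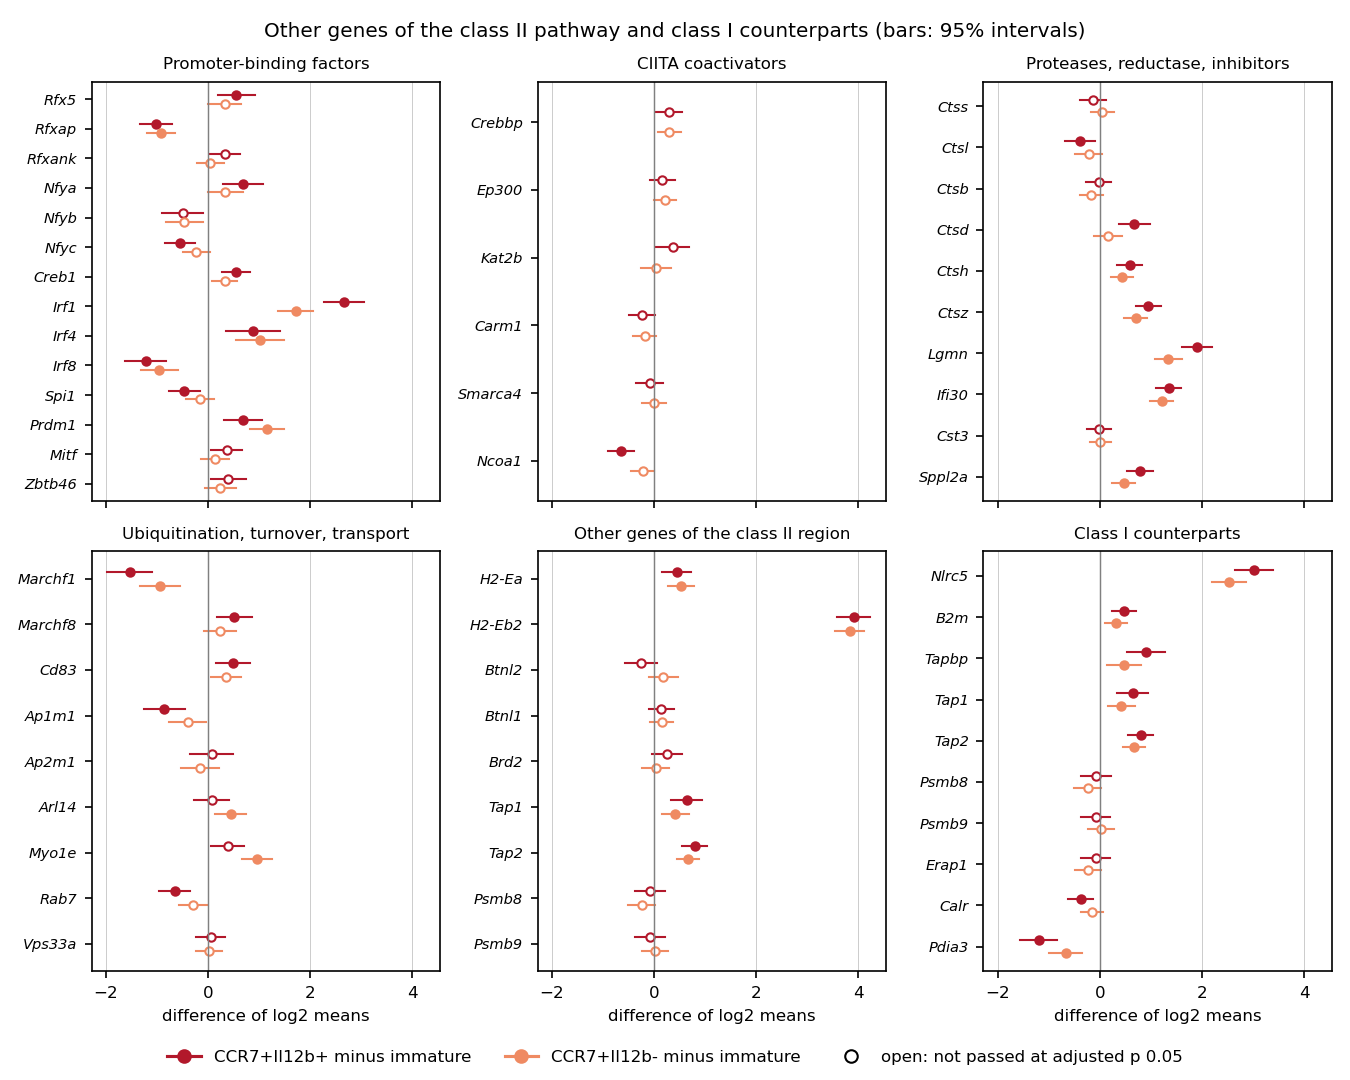
Differences of log2 means from immature samples, with 95% intervals, for the measured genes of 6 lists in CCR7+Il12b+ and CCR7+Il12b- samples. Filled points passed an adjusted p under 0.05. H2-Eb2, Nlrc5 and Irf1 lie farthest right, up to 3.91, and Marchf1, Irf8, Pdia3 and Rfxap lie farthest left, down to -1.53.

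The genes whose profile was most like that of Ciita were ranked by the root mean square difference of mean-centred log2 values over the 8 arrays, among 12933 other genes with a group mean above background. The nearest were Spint1 (0.10), a serine protease inhibitor of the cell surface, Samd9l (0.13), Mapk14 (0.14), the kinase p38α, Myo1f (0.15), a class I myosin, and Inpp5d (0.17), the lipid phosphatase SHIP1. Spint1 was at 6.65 and 6.26 in CCR7+Il12b+ cells, at 8.12, 8.15 and 7.79 in CCR7+Il12b- cells and at 9.16, 8.83 and 8.83 in immature cells, close to the steps of Ciita. H2-DMa ranked 42 (0.24), H2-Oa 114 (0.29) and H2-Ob 152 (0.31), while H2-Ab1, H2-Eb1, Cd74 and H2-Aa ranked 2823 to 5438. This is a description of 8 arrays that fall into 3 groups, with no test.

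Markers of the sorted subset and of other class II-bearing cells moved beside these changes. For the counts here, 17.9% of all genes fell and 14.1% rose in CCR7+Il12b+ against immature cells. In CCR7+Il12b- against immature cells 14.5% fell and 9.1% rose. Of 12 XCR1+ dendritic cell markers 9 fell and 1 rose in CCR7+Il12b+ against immature cells, and 7 fell and 1 rose in CCR7+Il12b- against immature cells. Their mean level per array was 8.44 to 8.56 in CCR7+Il12b+, 9.27 to 9.83 in CCR7+Il12b- and 10.24 to 10.34 in immature samples, a step down in the same order as Ciita, and their part in the class II result was not tested. B cells carry class II, H2-O and Ciita. Their 9 measured markers had a mean per array of 4.9999 to 5.18, 5.39 to 5.70 and 4.98 to 5.18 in CCR7+Il12b+, CCR7+Il12b- and immature samples, with 1 rise and 2 falls in CCR7+Il12b+ and 3 rises in CCR7+Il12b- cells against immature cells. The single marker genes in the rest of this paragraph were named after their values were seen. Of the 9 B cell markers 5 had means above background in each group (Cd79b, Ms4a1, Pax5, Cd22 and Blk), and the other 4, Cd79a and Ebf1 among them, were below it in each group. Ms4a1 rose by 0.91 ± 0.19 in CCR7+Il12b+ samples and by 1.51 ± 0.17 in CCR7+Il12b- samples. Cd22 went the other way, with -0.91 ± 0.12 in CCR7+Il12b+ samples (adjusted p = 0.000157). In CCR7+Il12b- samples Cd22 differed by -0.28 and did not pass (adjusted p = 0.0919). Pax5 and Blk passed in neither comparison. Cd79b averaged 5.87 in CCR7+Il12b+, 7.02 in CCR7+Il12b- and 6.45 in immature samples, so that it was lower with the reporter (adjusted p = 0.0499) and higher without it (adjusted p = 0.0406). The 3 rises in CCR7+Il12b- cells, Ms4a1, Cd79b and Cd79a, became 1 without immature replicate 2, and Cd79a was below background in both groups. The 2 falls of B cell markers in CCR7+Il12b+ cells became 1 when any sample other than immature replicate 1 was left out. The part of B cell markers in the class II result was not tested. Plasmacytoid dendritic cell markers lay at 5.95 to 5.98, 6.26 to 6.50 and 6.84 to 7.04 in the same order of groups, with 4 of 6 falling in each CCR7+ fraction and 1, Pacsin1, rising in CCR7+Il12b- cells (0.43, adjusted p = 0.0156). No plasmacytoid marker rose there without immature replicate 1 or without immature replicate 2. Mean marker levels of CD11b+ dendritic cells (7 genes, 4.97 to 5.42), macrophages and monocytes (11 genes, 6.25 to 6.66) and T cells (4 genes, 4.68 to 5.20) spanned under 0.6 log2 units over all arrays. These means hide opposite changes. Of the 11 macrophage and monocyte markers 3 rose and 4 fell in CCR7+Il12b+ against immature cells, and 3 rose and 3 fell in CCR7+Il12b- against immature cells. Spic rose by 3.07 in CCR7+Il12b+ and 3.15 in CCR7+Il12b- samples and Vcam1 by 3.17 and 2.57 in the same order. Lyz2 differed by -3.11 and -1.45 and Cd68 by -2.67 and -1.38. Of the CD11b+ markers 1 rose and 1 fell in CCR7+Il12b+ cells and 2 rose and 1 fell in CCR7+Il12b- cells, and of the T cell markers 2 fell in CCR7+Il12b+ cells and 1 rose in CCR7+Il12b- cells, all against immature cells.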

How the data were processed

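RNA was purified on columns, and 2 amplification rounds from 3 or 20 ng ended in biotin-labelled product, per the labels' protocols; the sources used here do not say which input each sample had. The authors deposited a log2 value for every probe set. RMA and the oligo package are what the submitters' processing notes name, without versions or options. Quantile normalization, a usual step of RMA, hides changes of total RNA per cell.

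From the 35556 rows, those with 1 symbol in the platform annotation (21789) were kept, with the highest mean over the 8 arrays per gene (19938 genes). limma 3.58.1 in R 4.3.3 fitted 3 group means over all 8 samples (5 residual and 5.86 prior degrees of freedom), with two-sided moderated tests and Benjamini-Hochberg adjustment over all genes; 0.05 was the threshold for a call. The script was tested on simulated data. A group mean below the mark of 4.98 gives a bound, with the mark standing in for lower values. Sequences are RefSeq's.

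Named genes are the members and, per list and comparison, the 3 called genes with the smallest p, with exceptions said. Of 62 pathway and 54 marker entries, those not matched to 1 symbol were not analysed here. The members and lists were chosen with earlier results of these data known. Alternatives were other scalings, filters on low values, blocks, weights, the compared groups alone, all rows, and leaving out each sample.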

Additional observations from a re-analysis of the deposited data

How the results depend on the processing

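Over 18 alternatives in each of 3 comparisons, the differences of the 8 members kept their direction and their side of the threshold in 398 of 432 cases, lost the call in 33 and turned in 1. The turn was H2-Aa in CCR7+Il12b+ against immature cells, never called, which ranged from -0.11 to 0.032 with samples left out and was 0.032 without CCR7+Il12b+ replicate 2. The falls of Ciita and H2-DMa passed in all 3 comparisons under every alternative run, with the highest adjusted p at 0.00785 and 0.0338. H2-Eb1 in CCR7+Il12b+ against immature cells lost its call in 13 of 18 alternatives. Other lost calls of members were H2-Oa and H2-Ob in CCR7+Il12b- against immature cells and H2-Ob and H2-Ab1 between the CCR7+ fractions. Some calls were lost with all 8 samples kept, and the cause of the losses was not tested.

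Leaving out samples gave 2 to 4 members called in CCR7+Il12b- against immature cells (2 without immature replicate 2 or 3), 5 to 6 in CCR7+Il12b+ against immature cells, and 3 to 5 between the CCR7+ fractions (3 without CCR7+Il12b- replicate 1 or 2 or either CCR7+Il12b+ sample). A fit of the compared groups alone called 3 between the CCR7+ fractions. Pathway genes called between the CCR7+ fractions numbered 3, against 5 after quantile normalization or cyclic loess, 1 with only the groups compared, a replicate block or array weights, and 1 to 3 with samples left out. Without any 1 sample the within-array shifts lay between 4.02 and 4.69 for Nlrc5 minus Ciita, 0.51 and 0.80 for H2-Ob minus H2-DMa, 0.75 and 0.87 for H2-Oa minus H2-DMa, and 0.20 and 0.36 for Cd74 minus H2-Ab1, at adjusted p of 0.0571 to 0.19. None could pass there, since 0.0571 is the smallest p that 7 samples allow.

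Samples with the same replicate number did not deviate together (correlations of -0.17 to 0.22 over 7 pairs across groups), so the numbers were not taken as pairs. With a replicate block 4, 5 and 4 members were called in CCR7+Il12b- against immature, CCR7+Il12b+ against immature and between the CCR7+ fractions. The median of all genes, 0.09 in CCR7+Il12b+ against immature cells, was 0.01 to 0.05 after other scalings.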
